A study of Cicer arietinum with 24 samples.

Results

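The genes described here were at like levels in leaf and in young seeds of chickpea and at lower levels in maturing seeds. They were chosen by the measured values themselves. A gene was taken when it had at least 10 FPKM in leaf, S1, S2 and S3, when these 4 values lay within less than 1 of each other on log2(FPKM + 1), and when the lowest of the 4 was at least 1 (2-fold) above the highest of S5, S6 and S7. FPKM is the number of sequenced fragments of a gene, scaled by the length of its exons and by the number of fragments mapped in the library. Here and below, limits of 2-fold and 4-fold are differences of 1 and 2 on log2(FPKM + 1). At low values they ask for more than a 2-fold or 4-fold ratio of FPKM itself. Of 25111 gene identifiers, 66 met this rule (0.263%). Of the 2995 genes that were level across leaf and young seeds in this way, the 66 made up 2.20%. Since these values chose the genes, the high levels in leaf and at S1 to S3 and the low levels at S5 to S7 are a description and not a finding. S4 was not used in the choice. The number of genes rests most on S5 and on leaf, since 358 genes met the rule when S5 was left out and 442 when leaf was left out. The likeness of leaf and young seeds was judged on FPKM as deposited and depends on how libraries are scaled.

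RNA-seq had been performed on field-grown plants of JGK3, a large-seeded chickpea cultivar, with 3 samples in each of 8 groups. The groups were leaf and whole seeds at 7 stages, of which S1, S2 and S3 stand for early-, mid- and late-embryogenesis, S5 for mid-maturation and S7 for late-maturation. All groups were of the same genotype, and no treatment was named. Leaves were taken once, from plants whose seeds were in mid maturation. The 3 samples of a group, biological replicates by the labels, were represented by 1 pooled value for each gene, so no spread between replicates could be computed and none of the differences below has a test or a p-value. The read number behind a value was unknown. The summed FPKM differed between libraries, from 820894 at S2 to 2454016 at S7. The tissues of the seed were not separated. By the study, the endosperm of chickpea is resorbed before S5, so the young and the maturing seeds differ in the tissues they hold, and its part in the results was not tested. In such bulk samples fewer cells of a type and less RNA per cell cannot be told apart. The identifiers are not paired with gene names, so no list of leaf or seed markers could be matched. Genes of DNA replication are among the few identifiers of known function, namely the minichromosome maintenance genes Ca_09549, Ca_12014 and Ca_15408 and the gene Ca_15618 for the replication licensing factor named cell division cycle 6. All 4 were lower in leaf, with 0.149 to 1.56 FPKM, than at S1, with 3.90 to 63.9 FPKM. Ca_12014 differed least, with 1.55 FPKM in leaf, 3.90 at S1, 2.27 at S2 and 2.70 at S3. Its highest value, 4.74 FPKM, was at S5.

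Seeds of legumes first pass through embryogenesis, when cells divide and the organs of the embryo are laid down. In maturation, storage proteins, starch and oil accumulate in the cotyledons, and the seed then dries and enters a resting state. Leaves and young legume seeds are both green and metabolically active, whereas late-maturation seeds approach quiescence. The function of the genes described here could be read only for the few identifiers that the study placed on a list of biological processes.

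The 66 genes were of moderate abundance. In leaf they ranged from 10.9 to 407 FPKM with a median of 39.2, at S1 from 11.98 to 490.4 with a median of 31.8, at S2 from 11.9 to 719.9 with a median of 33.1 and at S3 from 12.7 to 629.8 with a median of 35.0. At S4 the median was 20.5 FPKM, with values between 5.75 and 362. At S5 the median was 8.93 FPKM, with a range of 1.67 to 164. Maturation continued with 4.86 FPKM at S6 (0.0417 to 80.7) and 3.68 FPKM at S7 (0.0659 to 81.0). None of the genes was listed at 0 in any library (0 of 66). At least 10 FPKM was found for 58 of the genes in the S4 library, 30 in that of S5, 12 in that of S6 and 14 in that of S7, and 11 genes kept at least 10 FPKM in every library. Under 1 FPKM were 0 genes at S5, 12 at S6 and 15 at S7.

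**Figure D1:**
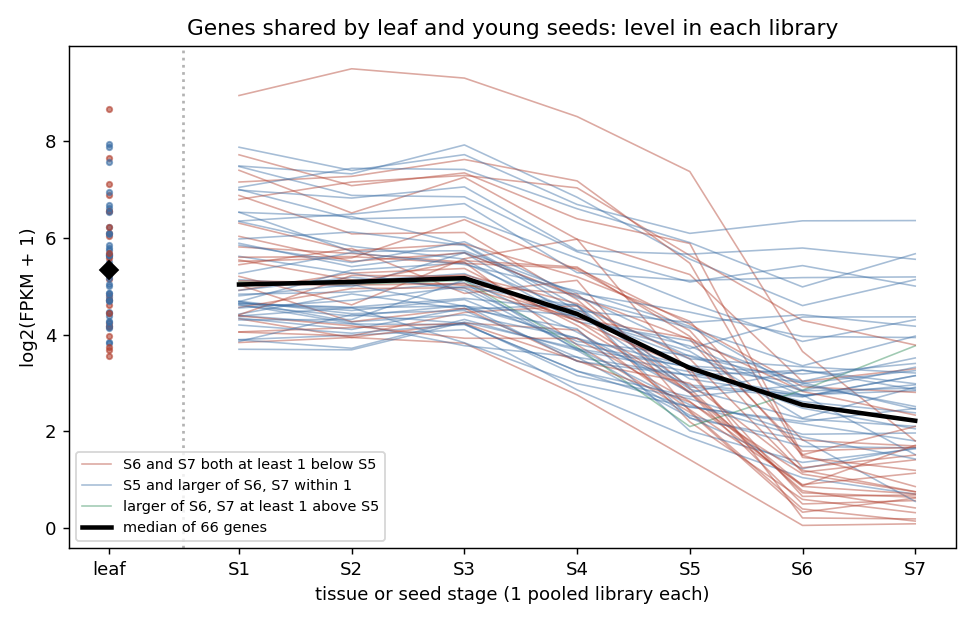
Level of each of the 66 genes, as log2(FPKM + 1), in leaf (points) and at the seed stages S1 to S7 (lines), with 1 pooled value per library and the median in black. Red lines are the 26 genes with S6 and S7 both at least 1 below S5, blue lines the 39 genes with S5 and the larger of S6 and S7 within 1 of each other, and the green line the gene higher after S5. Medians lie between 31.8 and 39.2 FPKM up to S3 and pass through 20.5 FPKM at S4.

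The share that the 66 genes took of each library is the same under any scaling of whole libraries. They held 0.294% of the summed FPKM in leaf, 0.419% at S1, 0.471% at S2 and 0.425% at S3. At S4 they held 0.237%, at S5 0.0834%, at S6 0.0239% and at S7 0.0233%. The share at S3 was 18.2 times that at S7. The sum of the 66 genes was between 3867 and 4154 FPKM in leaf and at S1 to S3 and 573 FPKM at S7, while the summed FPKM of all entries was larger at S7 than in any other library. The 10 most abundant of the 66 genes held 49.4% of their summed mean over leaf and S1 to S3.

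The score of a gene, the distance in log2(FPKM + 1) between its lowest value in leaf, S1, S2 and S3 and its highest value at S5, S6 and S7, had a median of 1.27 and exceeded 2 in 9 genes. It was largest for Ca_19492 (3.29), a gene on the study's list for differentiation. This gene had 67.5 FPKM in leaf, 116 at S1, 66.7 at S2, 68.1 at S3, 25.4 at S4, 5.93 at S5, 0.416 at S6 and 0.486 at S7. Its values in leaf, S2 and S3 nearly coincided, S1 stood above them, and the mean over leaf and S1 to S3 was 35.0 times the mean over S5 to S7. Ca_11747 had the next largest score (3.10), with 64.8 FPKM in leaf, 55.2 at S1, 50.2 at S2, 44.2 at S3, 12.8 at S4, 4.26 at S5, 0.258 at S6 and 0.54 at S7. Here leaf was the highest library, each seed stage up to S6 was lower than the one before, and S7 was slightly above S6.

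Ca_01031 had the third score, with 67.4 FPKM in leaf, 91.3 at S1, 85.8 at S2, 56.98 at S3, 23.2 at S4, 6.58 at S5, 5.56 at S6 and 7.90 at S7. Unlike the first pair of genes it stayed near one level from S5 to S7. Ca_06452 had 27.1 FPKM in leaf, 42.5 at S1, 53.98 at S2, 27.9 at S3, 33.8 at S4, 4.36 at S5, 0.319 at S6 and 0.108 at S7. Its S4 value lay above both leaf and S3 and under S1 and S2, and S5 was the first low library. Ca_14419, the least abundant of the 66 genes in leaf, had 10.9 FPKM in leaf, 19.1 at S1, 14.4 at S2, 13.2 at S3, 5.75 at S4, 1.67 at S5, 0.0417 at S6 and 0.0659 at S7. Both of its last values were under 0.1 FPKM, where the unknown read number limits what a value shows.

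Ca_06465 kept most of its young-seed level at S4, with 36.3 FPKM in leaf, 45.6 at S1, 34.02 at S2, 31.4 at S3, 27.6 at S4, 6.41 at S5, 0.662 at S6 and 0.56 at S7. Ca_22287 was already below each early value at S4, with 42.2 FPKM in leaf, 29.2 at S1, 37.6 at S2, 40.3 at S3, 17.3 at S4, 5.97 at S5, 0.713 at S6 and 0.338 at S7. The early libraries of both genes lay within a narrow range, and both were under 1 FPKM at S6 and S7. Ca_14337 had 20.9 FPKM in leaf, 19.3 at S1, 16.2 at S2, 22.3 at S3, 16.4 at S4, 3.03 at S5, 1.57 at S6 and 2.12 at S7. It remained above 1 FPKM at every stage. Ca_23292 had 16.9 FPKM in leaf, 13.9 at S1, 14.9 at S2, 16.2 at S3, 6.26 at S4, 2.67 at S5, 1.06 at S6 and 0.63 at S7. Ca_11798, the last of the 10 genes with the highest scores, had 16.6 FPKM in leaf, 20.5 at S1, 27.7 at S2, 22.02 at S3, 23.7 at S4, 3.83 at S5, 2.55 at S6 and 0.469 at S7. The identifier of Ca_11798 is also part of an entry that joins 4 identifiers, which had 268 FPKM in leaf, 141 at S3 and 233 at S7 and no low values in maturation. Reads of Ca_11798 may thus have been divided between both entries, and its profile is uncertain.

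At the other end, the 2 genes just inside the limit were Ca_04728 (score 1.03) and Ca_00418 (1.00), and the 2 just outside were Ca_05597 (0.995) and Ca_26041 (0.987). Ca_00418 had 25.5 FPKM in leaf, 22.4 at S1, 25.2 at S2, 30.9 at S3, 23.1 at S4, 10.7 at S5, 6.15 at S6 and 6.44 at S7. Ca_05597 had 20.001 FPKM in leaf, 22.8 at S1, 16.1 at S2, 19.8 at S3, 11.7 at S4, 7.58 at S5, 5.35 at S6 and 6.55 at S7. The profiles on both sides of the limit were much alike, with S5 below the early values. Ca_26041 had 23.4 FPKM in leaf, 23.8 at S1, 17.1 at S2, 18.1 at S3, 4.85 at S4, 3.25 at S5, 7.74 at S6 and 8.14 at S7, with its lowest value at S5.

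The most abundant gene was Ca_10319, with 407 FPKM in leaf, 490.4 at S1, 719.9 at S2, 629.8 at S3, 362 at S4, 164 at S5, 11.6 at S6 and 2.49 at S7. It was the most abundant of the 66 genes in leaf and at every seed stage up to S5, but not at S6 or S7. Ca_20123 had 234 FPKM in leaf, 178 at S1, 159 at S2, 241 at S3, 113 at S4, 46.2 at S5, 23.3 at S6 and 34.2 at S7. Unlike Ca_10319, it kept more than 10 FPKM at S6 and S7. Ca_04546, which is on the study's lists for cell cycle and for loci of seed size/weight, had 190.0 FPKM in leaf, 233 at S1, 167 at S2, 209.8 at S3, 102 at S4, 67.3 at S5, 80.7 at S6 and 80.98 at S7. It was the most abundant of the 66 genes at S6 and S7. An entry joining its identifier with Ca_04543 held less than 2 FPKM in each library.

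Ca_24474 was highest in leaf, with 243 FPKM in leaf, 131 at S1, 172 at S2, 169.5 at S3, 96.1 at S4, 58.8 at S5, 30.7 at S6 and 49.97 at S7. Ca_00185 had 199 FPKM in leaf, 209 at S1, 134 at S2, 161 at S3, 83.1 at S4, 58.1 at S5, 1.86 at S6 and 3.30 at S7. Both had similar values at S5, while S6 and S7 differed between them by more than 10-fold. Ca_13691 had 117 FPKM in leaf, 141 at S1, 153 at S2, 196 at S3, 144 at S4, 43.5 at S5, 1.76 at S6 and 1.29 at S7. Its S4 value was still within the range of leaf, S1, S2 and S3. Ca_11913 had 138 FPKM in leaf, 110.0 at S1, 141 at S2, 155 at S3, 129.9 at S4, 48.7 at S5, 18.6 at S6 and 12.8 at S7. It likewise kept its level to S4.

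Ca_01433 had 96.5 FPKM in leaf, 177 at S1, 117 at S2, 114 at S3, 51.4 at S4, 33.01 at S5, 42.01 at S6 and 31.1 at S7. This gene was at one level from S5 to S7, and S1 stood above the other early values. Ca_08589 had 93.2 FPKM in leaf, 167 at S1, 90.4 at S2, 151 at S3, 61.7 at S4, 36.9 at S5, 7.18 at S6 and 8.81 at S7. Ca_04728 had 123 FPKM in leaf, 126 at S1, 112 at S2, 132 at S3, 52.4 at S4, 49.7 at S5, 54.3 at S6 and 46.1 at S7. For Ca_04728 the lower level was reached at S4 already, and the 4 values from S4 to S7 lay between 46.1 and 54.3 FPKM.

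**Figure D2:**
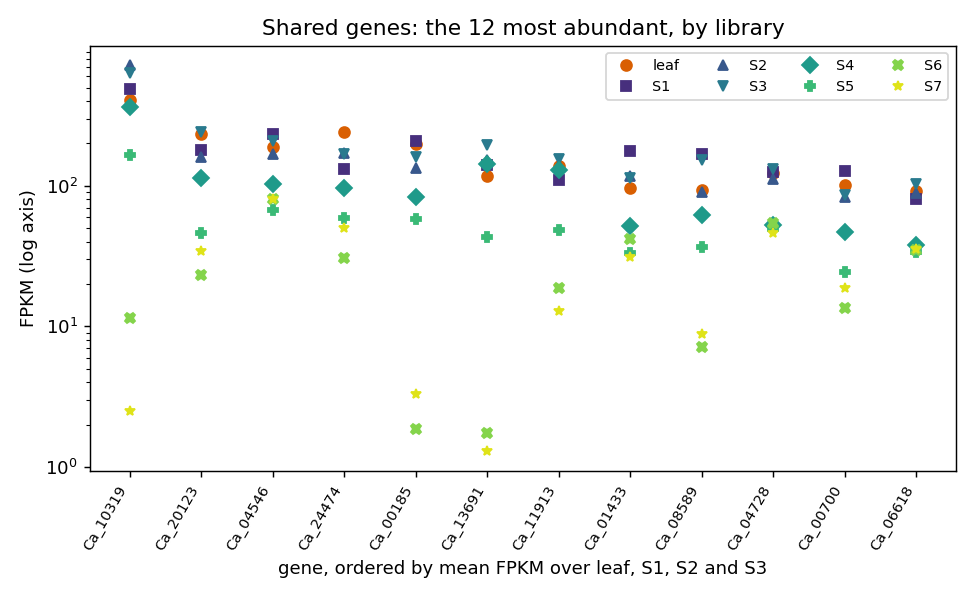
FPKM, on a log axis, of the 12 of the 66 genes with the highest mean over leaf, S1, S2 and S3, with 1 symbol for each pooled library. The 4 early libraries cluster at the top of each column, S4 lies among or under them, and S6 and S7 lie between 1.29 FPKM for Ca_13691 and 81.0 FPKM for Ca_04546.

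Among the 4 early libraries no single one stood at the top or bottom throughout. Leaf was the highest of the 4 in 23 genes, S1 in 18, S2 in 7 and S3 in 18. S2 was the lowest in 26 genes, S1 in 16, leaf in 15 and S3 in 9. The range over the 4 libraries had a median of 0.63 on log2(FPKM + 1) and was narrowest at 0.14. Leaf lay within the values of S1, S2 and S3 in 28 genes. Relative to the mean of S1, S2 and S3, leaf was higher in 37 genes and lower in 29, with a median difference of 0.05 (quartiles -0.32 and 0.33). All these counts are for FPKM as deposited, and the balance between leaf and young seeds depends on the scaling. The share of the summed FPKM held by these genes was lower in leaf (0.294%) than at S1 (0.419%), S2 (0.471%) and S3 (0.425%). Scaled to the same library sum, the median over genes moved by -0.53 from S3 to leaf. How many of these genes would then be lower in leaf was not tested.

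Leaf was highest relative to young seeds in Ca_02191, with 53.97 FPKM in leaf, 27.6 at S1, 28.4 at S2, 32.6 at S3, 11.8 at S4, 8.40 at S5, 5.13 at S6 and 4.22 at S7. The difference from the seed mean was 0.85 on log2(FPKM + 1), close to the limit that the choice allows. Ca_13592 was next, with 41.1 FPKM in leaf, 24.02 at S1, 22.7 at S2, 25.9 at S3, 21.9 at S4, 7.49 at S5, 5.61 at S6 and 7.88 at S7. In both genes the 3 young-seed values lay close together and leaf was alone above them. Leaf was lowest relative to young seeds in Ca_08174 (a difference of -0.85), with 14.8 FPKM in leaf, 22.6 at S1, 29.97 at S2, 30.3 at S3, 18.6 at S4, 6.07 at S5, 0.84 at S6 and 2.28 at S7. Ca_03484 followed (-0.59), with 34.7 FPKM in leaf, 64.4 at S1, 44.7 at S2, 50.6 at S3, 26.7 at S4, 13.99 at S5, 1.38 at S6 and 1.85 at S7. In each of these 2 genes leaf was the lowest of the 4 early libraries.

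S4 is the stage between the young seeds and mid-maturation, and the one library that the choice of genes left out. Most genes stood at an intermediate level there, as did most young-seed genes lower or higher in leaf, described further below. In 51 of 66 genes (77.3%) S4 was below the lowest of leaf, S1, S2 and S3 and above the highest of S5, S6 and S7. In 13 genes (19.7%) it was still at or above the lowest early value, and in 2 genes, Ca_23059 and Ca_04728, it was at or under the highest late value. S4 was under S3 in 62 genes, and S5 was under S4 in all 66 genes. Relative to the mean of S1, S2 and S3, S4 differed by a median of -0.78 on log2(FPKM + 1) (quartiles -1.12 and -0.43).

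The genes differed in how far they had moved by S4. The median gene showed 46.2% of its log2 difference between young seeds and S5 at S4, with quartiles of 27.0% and 63.2%. S4 was nearer to S5 in 30 genes and nearer to the young seeds in 36. At S4, 26 of the 66 genes (39.4%) were at least 2-fold lower than at S3, and 0 were 2-fold higher. Over all 15003 genes that reached 1 FPKM at S3 or S4, 6.93% were 2-fold lower at S4, and among the 2995 genes level across leaf and young seeds it was 3.97%. At S5, 31 of the 66 genes (47.0%) were lower than at S4 by at least 1 on log2(FPKM + 1). This held for 10.9% of 14912 genes and 3.57% of the 2995. As plain ratios of FPKM, S3 over S4 had a median of 1.94 in the 66 genes and S4 over S5 of 2.09. S3 and S5 were used to choose the 66 genes, so these counts describe the timing of the difference only. The median differences were -0.92 for S3/S4 and -0.98 for S4/S5 in the 66 genes, and -0.02 for both steps over all genes at 1 FPKM or more. Scaled to the same library sum, 27 of the 66 genes (40.9%) were 2-fold lower at S4 than at S3, against 7.62% of all genes. For S4/S5 it was 48 genes (72.7%) against 21.0%, with a median over all genes of -0.44.

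S4 was lowest relative to S3 in Ca_11747 (a difference of -1.71), followed by Ca_06618 (-1.43) and Ca_02191 (-1.39). Ca_06618 had 91.5 FPKM in leaf, 80.4 at S1, 88.98 at S2, 103 at S3, 37.8 at S4, 33.8 at S5, 35.2 at S6 and 35.6 at S7. From S4 on its 4 values lay between 33.8 and 37.8 FPKM, under all early values. S4 was highest relative to S3 in Ca_20758 (0.41), which had 39.99 FPKM in leaf, 35.9 at S1, 23.5 at S2, 46.5 at S3, 61.9 at S4, 8.24 at S5, 0.578 at S6 and 0.61 at S7. Here S4 was the highest of all 8 libraries, and S5 was the first low library. Ca_06452 (0.27) and Ca_01228 (0.14) followed. Ca_01228 had 17.2 FPKM in leaf, 15.6 at S1, 14.7 at S2, 20.98 at S3, 23.2 at S4, 3.59 at S5, 0.512 at S6 and 0.25 at S7. Ca_20758 and Ca_01228 were the only 2 of the 66 genes with S4 above each of leaf, S1, S2 and S3.

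**Figure D3:**
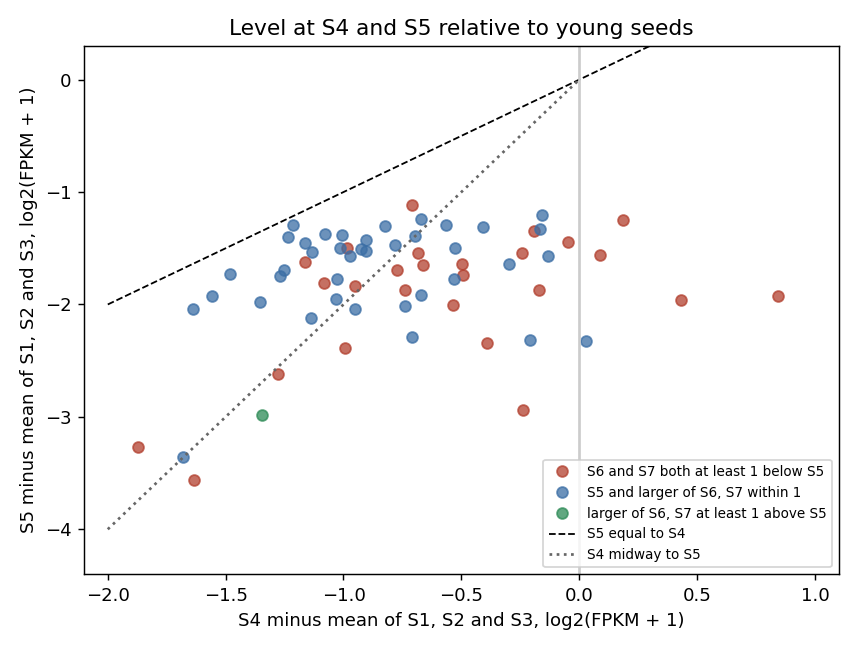
Difference of S4 (x axis) and of S5 (y axis) from the mean of S1, S2 and S3, both on log2(FPKM + 1), for each of the 66 genes. On the dashed line S5 equals S4, and on the dotted line S4 lies midway. All genes lie under the dashed line, 30 lie to the left of the dotted line, and Ca_20758 is the point farthest to the right at 0.84.

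After S5 the genes differed in their course. In 26 genes S6 and S7 were both at least 1 below S5 on log2(FPKM + 1), in 39 genes S5 and the larger of S6 and S7 were within 1 of each other, and in 1 gene, Ca_23059, the larger of the 2 was at least 1 above S5. These counts depend on the limit of 1, since limits of 0.5 and 2 gave 40 and 14 genes lower after S5. The 26 genes had medians of 8.54 FPKM at S5, 1.20 at S6 and 1.01 at S7. The 39 genes began from a similar level of 9.12 FPKM at S5 and had medians of 6.19 at S6 and 6.81 at S7. The mean over leaf and S1 to S3 had medians of 37.6 FPKM in the 26 genes and 29.9 FPKM in the 39 genes. Of the 13 genes that still had their early level at S4, 9 belonged to the 26 genes that were lower again after S5.

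S5 was the highest of the 3 late libraries in 53 genes, S6 in 6 and S7 in 7. S6 and S7 were within 1 of each other in 63 genes, with a median difference of -0.01, and in the other 3 genes S7 was lower. At S7, 31 of the 66 genes (47.0%) were at least 2-fold lower than at S5, and 1 was 2-fold higher. Over all 14653 genes that reached 1 FPKM at S5 or S7, 30.8% were lower by this limit, and 16.4% of the 2995 genes level across leaf and young seeds. All these libraries were used in the choice, and nothing is read from the counts. Scaled to the same library sum, 49 of the 66 genes (74.2%) were 2-fold lower at S7 than at S5, against 44.1% of all genes, whose median moved by -0.78.

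The largest difference after S5 was that of Ca_10319, for which S7 minus S5 was -5.57 on log2(FPKM + 1). Ca_13691 was next, with -4.28. In both genes S6 was already far below S5, and S7 was lower still. The opposite was found in Ca_23059, with 41.3 FPKM in leaf, 33.1 at S1, 31.8 at S2, 33.8 at S3, 12.3 at S4, 3.29 at S5, 6.23 at S6 and 12.6 at S7. It was lowest at S5 and higher at each later stage, although S7 was still under the early values. Ca_05402, on the study's list for loci of seed size/weight, also had its lowest value at S5, with 49.7 FPKM in leaf, 56.7 at S1, 43.9 at S2, 59.6 at S3, 26.9 at S4, 12.1 at S5, 19.6 at S6 and 19.6 at S7.

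To describe young-seed genes at other levels in leaf, the young-seed part of the rule was applied without leaf. It gave 442 genes that were at least 10 FPKM and level at S1, S2 and S3 and at least 2-fold lower at S5 to S7. Leaf was at least 2-fold under all 3 young-seed values in 259 of them (58.6%) and at least 2-fold above them in 51 (11.5%). The other 132 held the 66 genes described here (14.9% of the 442) and 66 further genes that met the rule in seeds but not with leaf included. Medians at S3 were 35.0 FPKM for the 66 genes, 37.3 for the 259 genes lower in leaf and 51.3 for the 51 genes higher in leaf, with 39.2, 2.82 and 305 FPKM in leaf.

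The genes lower in leaf had the lowest medians at the end of maturation. S4 minus the mean of S1, S2 and S3 had medians of -0.78 for the 66 genes, -0.86 for the genes lower in leaf and -0.59 for those higher in leaf, with quartiles of -1.12 and -0.43, -1.33 and -0.45, and -0.99 and -0.24. S4 was under the lowest of S1 to S3 and above the highest of S5 to S7 in 80.3%, 81.1% and 68.6% of them. The medians of FPKM at S5 were 8.93, 7.07 and 14.5 in the same order. They were 4.86, 0.830 and 2.75 at S6, and 3.68, 0.567 and 2.46 at S7. S6 and S7 were both at least 1 below S5 on log2(FPKM + 1) in 39.4% of the 66 genes. The share was 62.5% of the genes lower in leaf and 58.8% of those higher in leaf. Among the 66 further genes, with leaf neither 2-fold lower nor higher, it was 38 (57.6%), with medians of 10.3 FPKM at S5, 2.82 at S6 and 2.37 at S7. At this limit and as deposited, the share was lowest in the 66 shared genes. It was not computed for the other sets at other limits or scalings. Nothing is read from this order, and its relation to the level in leaf was not tested. With 1 pooled value per library these differences between sets were not tested. They also share all libraries, and the late values took part in the choice of each set.

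**Figure D4:**
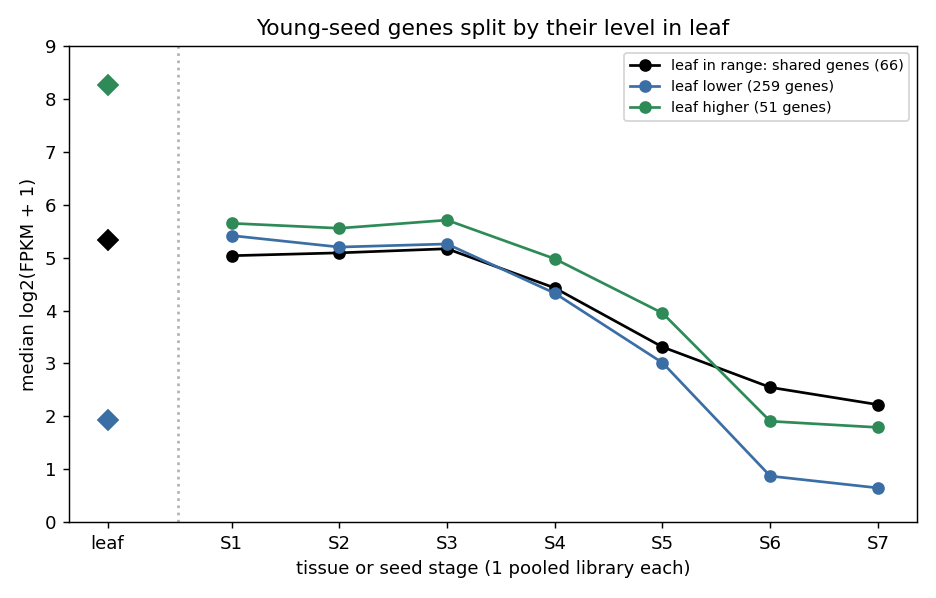
Median log2(FPKM + 1) in leaf (diamonds) and at S1 to S7 (lines) for young-seed genes split by their level in leaf, namely the 66 shared genes, 259 genes lower in leaf and 51 genes higher in leaf. The medians at S5 are 8.93, 7.07 and 14.5 FPKM, and at S7 the genes lower in leaf (0.567 FPKM) lie apart from the shared genes (3.68) and the genes higher in leaf (2.46).

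The study had assigned identifiers to desiccation, grain filling, cell growth, cell cycle and differentiation, and to loci associated with seed size/weight, and the lists used here hold those it gave with a differentially methylated region. Such regions were called between stages of JGK3 or between JGK3 and Himchana 1, a small-seeded cultivar. Of the 66 genes, 4 (6.06%) were on these lists, against 459 of the 6081 genes (7.55%) with at least 10 FPKM in leaf, S1, S2 and S3. The share was thus near that of all genes of this abundance. The cell cycle list gave 1 gene, Ca_04546, which is 0.339% of its 295 genes. This was 1.52% of the 66 genes, against 0.822% of the 6081. The differentiation list gave Ca_19492, which is 0.248% of 403 genes, or 1.52% of the 66 against 1.53% of the 6081. The list of loci for seed size/weight gave Ca_04546, Ca_05402 and Ca_07545, which are 0.342% of 878 genes. They were 4.55% of the 66 genes, against 4.26% of the 6081. With so few genes on each list, nothing is read from these shares. Ca_07545 had 49.1 FPKM in leaf, 34.2 at S1, 30.8 at S2, 50.7 at S3, 19.4 at S4, 12.6 at S5, 5.67 at S6 and 6.81 at S7. The lists for cell growth, grain filling and desiccation gave 0 of the 66 genes. They are short, with 40, 44 and 24 genes at 10 FPKM or more in all 4 early libraries, and nothing is read from a count of 0. With genes listed without such a region included, 9 of the 66 genes (13.6%) were on a list against 10.6% of the 6081 genes, so that the direction of the difference turned. Those additions had been listed for differential expression between stages of JGK3 or between JGK3 and Himchana 1. Expression in JGK3 took part in both comparisons, so the additions are not independent evidence. The genes added were Ca_10319 for desiccation, Ca_00700 for grain filling, Ca_12318 and Ca_17204 for differentiation and Ca_13969 for loci of seed size/weight, of which all but Ca_10319 are named here after their values were seen. Of the 13 identifiers to which the text of the study gives a function, 0 were among the 66 genes. Since the 66 genes are 0.263% of all identifiers, nothing is read from this count either.

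A second measure existed for 6 of the 66 identifiers, which occurred on a further entry with lower values that the choice had not used. None of the 6 further entries met the rule (0 of 6), and just 1, that of Ca_11913, had all 4 early values above its late values. For Ca_08589 the further entry stayed under 1 FPKM in each library, with 0.529 FPKM at S5 as its highest value, against 36.9 FPKM for the entry described. For Ca_15033 the entry described had 48.4 FPKM in leaf, 31.2 at S1, 33.4 at S2, 37.3 at S3, 19.3 at S4, 11.6 at S5, 3.84 at S6 and 6.54 at S7. Its further entry was lowest at S1 (0.130 FPKM) and highest at S6 (35.1 FPKM). For Ca_07065 the entry described had 66.7 FPKM in leaf, 58.2 at S1, 41.4 at S2, 51.004 at S3, 26.1 at S4, 16.6 at S5, 9.25 at S6 and 14.7 at S7. The further entry was higher at S4 (21.6 FPKM) and S5 (20.1 FPKM) than in leaf (12.4 FPKM). The profiles of identifiers with several entries thus depended on the entry, and when entries of an identifier were summed 62 genes met the rule, 2 of them with several entries.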

How the data were processed

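Of 24 RNA-seq samples of chickpea, in 8 groups of 3 taken from the sample titles, the authors deposited 1 table per group with 35234 entries and 1 FPKM value each. By the methods given, quality filtering (NGS QC Toolkit) and TopHat mapping to the chickpea genome preceded the FPKM estimates, which the authors made with Cufflinks. How the 3 samples were pooled, and how libraries were scaled, is not given in the sources used here. No counts or depths were recovered, so no interval for counting error is given, and the limma fit intended for replicate columns was not run.

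Tables were joined by identifier (all listed the same identifiers in the same order). The 26305 entries with a single identifier were used, and for the 1168 identifiers on several entries the one with the highest mean over the 8 libraries, which left 25111 genes. A pseudocount of 1 FPKM was added before taking log2, which understates differences of low values. Where more than 250 genes met the rule the highest scores were to be kept, which was not needed. Calculations used Python 3.11.15, pandas 2.3.3 and numpy 2.4.6 and were tested on simulated data. No identifier matched the RefSeq gene table (0 matches), so no names, coordinates or sequences are given.

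The genes, lists and limits were chosen with earlier results of these data known. Genes named are the 10 with the highest score, the 10 most abundant, up to 4 per process list, those named in the text of the study, the 2 on each side of the limit, the extremes of S4 relative to S3 (3 each), of leaf relative to S1 to S3 and of S7 relative to S5 (2 each), and up to 3 with several entries and 5 listed at 0. For the last group no gene was found (0 genes). The genes of DNA replication and those of the full process lists, the shares over all genes under other scalings, the mirror image under them and the set of further young-seed genes were added after seeing the data. Alternatives covered pseudocounts, scalings, entries, limits and left-out libraries.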

Additional observations from a re-analysis of the deposited data

Results flagged for a closer look

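Entries that were not used above held the same pattern. Of 1661 entries joining several identifiers, 7 met the rule (0.421%). The highest score among them was that of the entry joining Ca_14363 and Ca_14364 (1.94), with 46.3 FPKM in leaf, 33.4 at S3, 50.5 at S4, 7.95 at S5 and 0.544 at S7. Of 7268 entries without a gene identifier, 4 met it (0.0550%). One of these, XLOC_026841, had 52.7 FPKM in leaf and 50.5 at S3 and was listed at 0 at S5 and S7, with 9.58 FPKM between them at S6. These entries are values in data outside the comparisons, and they could not be assigned to a single gene.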

How the results depend on the processing

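No paired analysis was possible because each group is represented by 1 pooled column without replicate numbers, and for the same reason no replicate could be left out. The count of genes moved most when leaf or S5 was left out, and among the scalings with the same sum. From S3 to S7 the median over genes at 1 FPKM or more moved by -0.13 on log2(FPKM + 1) as deposited, by -1.23 with the same sum, by -0.76 with the same upper quartile and by -0.13 with the median ratio. With the same sum 241 genes met the rule, 45 of them among the 66, with 193 between early and late values at S4, 64 at least 2-fold lower at S4 than at S3, 120 lower at S5 than at S4, 106 lower after S5, 738 young-seed genes lower in leaf, 23 on process lists, 17 with several entries and a share at S3 of 6.69 times that at S7. With the same upper quartile 89 genes met it (48 of the 66), 7 of them on process lists, and with the median ratio 67 (60 of the 66). Under all 3 scalings each of the 66 genes kept its lowest early value above its highest late value, by at least 0.85. With the same sum this distance was at least 1.06, yet 45 of the 66 met the whole rule. The others failed on the limits for leaf and S1 to S3, their range or minimum. From S3 to leaf the median over genes moved by -0.09 as deposited and by -0.53 with the same sum. It moved by -0.43 with the same upper quartile and by 0.02 with the median ratio. A pseudocount of 5 FPKM left 42 genes (38 of the 66), with 32 between at S4, 15 lower at S4, 20 lower at S5 and 10 lower after S5. A range under 0.5 gave 21 genes and under 1.5 gave 105, and a score of at least 2 gave 9. Leaving S5 out of the late stages gave 358 genes, and leaving out S6 or S7 gave 72 and 71. Leaving leaf out of the early libraries gave 442 genes, S1 97, S2 101 and S3 109. A 4-fold limit gave 0 genes lower at S4 than at S3 and 5 lower at S5 than at S4. A limit of 0.5 or 2 in place of 1 gave 40 and 14 genes lower after S5. All listed genes gave 9 genes on process lists (13.6%, against 10.6% of the 6081 genes). Identifiers with 1 entry gave 60 genes, by construction 0 with several entries, and summed entries 62, of which 2 had several. The causes of these differences were not tested. The unknown read number limits all values, most of all those under 1 FPKM.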

Other observations

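The pattern had a mirror image, whose size depended on the scaling. Of the 2995 genes that were level across leaf, S1, S2 and S3, 66 had each of S5, S6 and S7 at least 2-fold lower than the lowest early value, and 64 had each of them at least 2-fold higher than the highest early value. With the median ratio the counts were 67 lower and 62 higher, with the same upper quartile 89 and 44, and with the same sum 241 and 8, alternatives chosen after seeing the data. A further 121 genes with at least 10 FPKM in leaf and at S1 to S3 met the limit on the score but were not level, with a range of 1 or more. Among these was Ca_23631, described by the study as a member of the GH3 family of early auxin-responsive genes. Ca_23631 had 19.7 FPKM in leaf, 30.1 at S1, 69.9 at S2, 33.5 at S3, 9.82 at S4, 1.86 at S5, 1.29 at S6 and 1.86 at S7. Its score was 2.86, which would place it among the highest of the 66, but its range over the early libraries was 1.77.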
